A study of Mus musculus with 4 samples.

Results

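Among the 18193 genes named on the arrays, 37 encode proteins of the DNA damage response and of DNA repair, and their transcripts are described here in mouse melan-a melanocytes. They were chosen by function, with earlier results of these data known, so comparisons of their shares with those of genes are descriptions only. The functions were homologous recombination, the Fanconi anaemia pathway, mismatch repair, checkpoint signalling, break sensing, end joining, and base excision and single-strand break repair. All 37 were found on the array, 16 of them on 1 probe set and 21 on several, and each gene was read from its brightest probe set, judged on the mean of its 4 values. Of the 37, 36 had a mean at or above the median log2 signal of non-control probe sets, which was 6.66. Bard1 alone did not.

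The 4 samples of the melanocyte line melan-a were each measured on 1 Affymetrix array. The sample called MYC-TA here was labelled Hmhi-MYC-TA and received EGF, a growth factor, at 100 ng/ml for 14 days. The sample labelled Hmhi-Miz1 kd, also given as Hmhi-pS-Miz1, received the same EGF treatment. Hmhi EGF was the Hmhi line with that treatment, and Hmhi starved was the Hmhi line kept 14 days without added EGF. All 4 were in starvation medium with dialyzed serum, after earlier growth with the phorbol ester TPA and cholera toxin. The labels do not spell out Hmhi, pS or MYC-TA, and do not say whether a line is 1 clone. The study's title concerns Myc, Miz-1, melanocyte senescence and cystathionase.

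Double-strand breaks are sensed by the Mre11-Rad50-Nbn complex, which activates the kinase ATM, while single-stranded DNA at stalled forks activates ATR with its partner ATRIP. These kinases signal through CHK1 and CHK2 to hold the cell cycle, and mark chromatin by phosphorylating the histone variant H2AX. Breaks are then joined directly by the Ku proteins, DNA-PKcs and ligase IV, or copied from the sister chromatid by homologous recombination, which needs BRCA1 and BRCA2 and runs mainly in S and G2 phase. Many recombination and fork-protection genes are transcribed mostly in cycling cells under E2F control, whereas most end-joining and sensor genes are transcribed through the cycle. Persistent signalling along this route is one of the known ways into senescence.

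With 1 array per condition there was no spread between replicates. No test was run, and every difference compares 2 arrays and not the conditions. The only spread at hand was that between the probe sets of a gene, read on the same 2 arrays. It leaves out any error that all probe sets of an array share, so it is not the full error of measurement. Its SD is called the technical SD here. This SD was 0.31 on the log2 scale for Hmhi EGF minus Hmhi starved. The technical SD was 0.21 for the array labelled Miz1 kd minus Hmhi EGF, 0.25 for MYC-TA minus Hmhi EGF and 0.39 for MYC-TA minus the array labelled Miz1 kd. The comparisons share arrays, Hmhi EGF above all, so they are not independent of each other. Values of 1 probe set are not set against those of another.

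Zbtb17, the gene of Miz-1, was measured first as a check of the labels. Its brighter probe set read 8.71 in MYC-TA, 9.07 in the array labelled Miz1 kd, 8.72 in Hmhi EGF and 8.73 in Hmhi starved. The highest of these was the reading of the array labelled Miz1 kd, and on a dimmer probe set that array read 6.72 against 6.50 in Hmhi EGF. A lower Zbtb17 level was thus not seen there, and every direction given for that array is that of the array as labelled. Myc read 9.78 in MYC-TA, 10.79 in the array labelled Miz1 kd, 10.60 in Hmhi EGF and 10.64 in Hmhi starved. Mycn, on its brightest set, read 13.68 in MYC-TA, 7.57 in the array labelled Miz1 kd, 13.53 in Hmhi EGF and 13.32 in Hmhi starved. A dimmer set read 7.22 in MYC-TA, 6.84 in the array labelled Miz1 kd, 6.97 in Hmhi EGF and 5.56 in Hmhi starved. A further set lay below the median in all 4 arrays, at 5.63 to 5.88. The far lower Mycn reading in the array labelled Miz1 kd was thus seen on the brightest set only. Of 13 melanocyte markers, 9 or 10 read above the median in each array, and Tyrp1, Mlana, Mitf and Sox10 did in all 4. Tyr, which encodes tyrosinase, lay below it in all 4, at 4.62 to 5.63, as did Trpm1 and Ednrb. Of 10 fibroblast markers 4 or 5 read above the median, and of 6 keratinocyte markers 2 did in every array.

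Several of these markers differed by more than any member did, and those named next were chosen after their values were seen. In MYC-TA 12 of 13 melanocyte markers read lower than in Hmhi EGF, 5 of them at least 1.5-fold, with a median of -0.26. Oca2, a melanosome membrane protein, read 6.21 in MYC-TA, 10.09 in the array labelled Miz1 kd, 9.36 in Hmhi EGF and 8.29 in Hmhi starved. Slc45a2, a melanosome transporter, read 6.97 in MYC-TA, 9.70 in the array labelled Miz1 kd, 9.67 in Hmhi EGF and 8.05 in Hmhi starved. Both were lowest in MYC-TA, by -3.16 and -2.70 against Hmhi EGF. Dct, a melanin synthesis enzyme, was -2.07 in the array labelled Miz1 kd against Hmhi EGF, with a median of -0.04 for the 13. For Hmhi EGF minus Hmhi starved 6 of the 13 were at least 1.5-fold higher and 3 lower. Among fibroblast markers Pdgfrb differed by -3.27 and Col3a1 by 2.48 between MYC-TA and Hmhi EGF, in opposite directions. The summed signal of the 13 melanocyte markers was 22922.2 in MYC-TA, 32296.8 in the array labelled Miz1 kd, 27883.4 in Hmhi EGF and 37963.9 in Hmhi starved. That of the 10 fibroblast markers was 5519.67 in MYC-TA, 4089.61 in the array labelled Miz1 kd, 4297.32 in Hmhi EGF and 5093.37 in Hmhi starved. The part of these markers in the members' differences was not tested.

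The plot of levels by array shows all members. The Hmhi starved array stood apart for many of them: it read below all 3 EGF arrays for 21 of 37 members (56.8%), against 34.5% of the 11188 genes past the level filter, which are genes with a mean over the 4 arrays at or above 6.66. It read above all 3 for 6 members (16.2%), against 30.5% of genes. MYC-TA gave the highest reading for 18 members (48.6%), against 29.0% of genes. The median range over the 4 arrays was 0.67 for members and 0.63 for genes. Over the 3 EGF arrays alone it was 0.35 and 0.40.

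**Figure D1:**
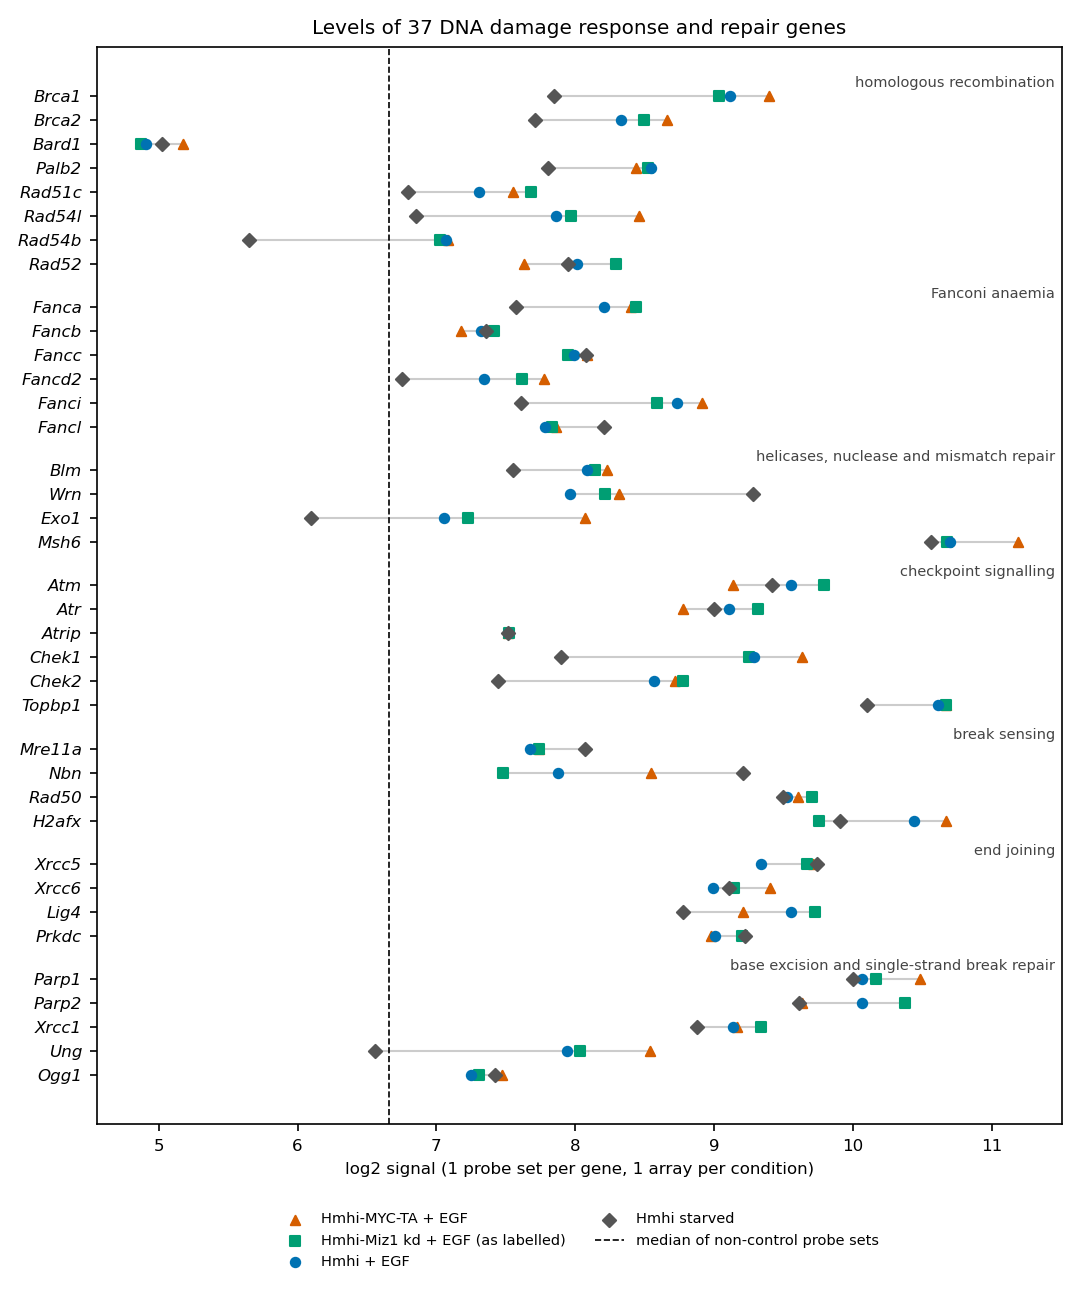
Log2 signal of each of the 37 members (rows, grouped by role) on the 4 arrays, 1 probe set per gene and 1 array per condition, with no error bars since there were no replicates. The dashed line is the median of non-control probe sets, 6.66. The grey diamonds of Hmhi starved lie left of the other 3 symbols in 21 rows.

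The first comparison asks how the members differed after 14 days of EGF in Hmhi cells. Hmhi EGF read at least 2-fold higher than Hmhi starved for Rad54b, Chek1, Ung, Brca1, Fanci, Chek2 and Rad54l, which act in recombination, crosslink repair, checkpoint signalling and uracil removal. Wrn and Nbn were at least 2-fold lower. The kinases Atm and Atr, and Rad50, differed by less than the technical SD. In all, 13 of 37 members (35.1%) were at least 1.5-fold higher, against 16.4% of genes past the filter, and 7 (18.9%) at least 2-fold higher, against 7.74% of genes. At least 1.5-fold lower were 2 members (5.41%), against 12.8% of genes. The same 2 were at least 2-fold lower, against 4.52% of genes. The median difference was 0.26 for members and 0.01 for genes.

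Homologous recombination held the most of these. Brca1, a ubiquitin ligase that directs breaks into recombination, read 9.39 in MYC-TA, 9.04 in the array labelled Miz1 kd, 9.11 in Hmhi EGF and 7.85 in Hmhi starved. The Hmhi starved array was the low one and the 3 EGF arrays spanned 0.35, so Hmhi EGF was 2.4-fold higher. Its other probe set above the median differed by 0.86 in the same direction. Rad54b, a motor protein that remodels DNA during strand exchange, read 7.08 in MYC-TA, 7.03 in the array labelled Miz1 kd, 7.07 in Hmhi EGF and 5.65 in Hmhi starved. The 3 EGF arrays spanned 0.05, and the difference of 1.42 starts from a level below the median, so the size of the fold is uncertain. Rad54l, its close relative, read 8.46 in MYC-TA, 7.97 in the array labelled Miz1 kd, 7.86 in Hmhi EGF and 6.86 in Hmhi starved. Here the EGF arrays also differed among themselves, with MYC-TA highest, and Hmhi EGF was above Hmhi starved by 1.003, just past 2-fold.

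Brca2, a mediator of homologous recombination, read 8.66 in MYC-TA, 8.50 in the array labelled Miz1 kd, 8.33 in Hmhi EGF and 7.71 in Hmhi starved. Palb2, which bridges BRCA1 and BRCA2, read 8.44 in MYC-TA, 8.53 in the array labelled Miz1 kd, 8.54 in Hmhi EGF and 7.80 in Hmhi starved. Both were lowest in Hmhi starved, with differences of 0.62 and 0.74 for Hmhi EGF. Rad51c, which acts in homologous recombination, read 7.55 in MYC-TA, 7.68 in the array labelled Miz1 kd, 7.30 in Hmhi EGF and 6.79 in Hmhi starved, a difference of 0.51. Bard1, the partner of BRCA1, read 5.18 in MYC-TA, 4.87 in the array labelled Miz1 kd, 4.91 in Hmhi EGF and 5.02 in Hmhi starved, below the median level in all 4 arrays. Rad52, an annealing factor best known from yeast, read 7.63 in MYC-TA, 8.30 in the array labelled Miz1 kd, 8.01 in Hmhi EGF and 7.95 in Hmhi starved. For Rad52 Hmhi EGF differed from Hmhi starved by 0.06, less than the technical SD. The 8 recombination genes had a median of 0.68, with 5 at least 1.5-fold higher and 0 lower.

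The Fanconi anaemia genes, which unhook DNA interstrand crosslinks, divided. Fanci, which with FANCD2 forms the clamp that is ubiquitinated at crosslinks, read 8.91 in MYC-TA, 8.59 in the array labelled Miz1 kd, 8.73 in Hmhi EGF and 7.61 in Hmhi starved. Fancd2 itself read 7.78 in MYC-TA, 7.62 in the array labelled Miz1 kd, 7.34 in Hmhi EGF and 6.75 in Hmhi starved, and Fanca, a core complex subunit, 8.40 in MYC-TA, 8.44 in the array labelled Miz1 kd, 8.20 in Hmhi EGF and 7.57 in Hmhi starved. These 3 were higher in Hmhi EGF by 1.13, 0.59 and 0.63. Fancd2 lies close to the 1.5-fold limit, which is 0.58 on the log2 scale.

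The other 3 core complex genes were lower in Hmhi EGF on the probe sets used, 2 of them within the technical SD. Fancb read 7.18 in MYC-TA, 7.41 in the array labelled Miz1 kd, 7.32 in Hmhi EGF and 7.36 in Hmhi starved. Fancc read 8.09 in MYC-TA, 7.95 in the array labelled Miz1 kd, 7.99 in Hmhi EGF and 8.07 in Hmhi starved, and Fancl, the ubiquitin ligase of the complex, 7.86 in MYC-TA, 7.83 in the array labelled Miz1 kd, 7.78 in Hmhi EGF and 8.20 in Hmhi starved. Their differences for Hmhi EGF were -0.04, -0.08 and -0.42. Further probe sets above the median went the other way, at 0.03 for Fancb and at 0.36 and 0.002 for Fancc. The direction of Fancb and Fancc is thus not settled.

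Among helicases, nucleases and mismatch repair, Wrn stood opposite to the rest. Wrn, the helicase lost in Werner syndrome, a premature ageing disease, read 8.32 in MYC-TA, 8.21 in the array labelled Miz1 kd, 7.96 in Hmhi EGF and 9.28 in Hmhi starved. Hmhi starved was the highest of the 4, 2.5-fold above Hmhi EGF, and the second probe set above the median differed by -1.01. Blm, the related helicase lost in Bloom syndrome, read 8.23 in MYC-TA, 8.14 in the array labelled Miz1 kd, 8.09 in Hmhi EGF and 7.55 in Hmhi starved, a difference of 0.54. Exo1, a nuclease of end resection and mismatch repair, read 8.07 in MYC-TA, 7.22 in the array labelled Miz1 kd, 7.05 in Hmhi EGF and 6.10 in Hmhi starved. It was higher by 0.95 in Hmhi EGF, from a starved level below the median. Msh6, a sensor of mismatched bases, read 11.19 in MYC-TA, 10.68 in the array labelled Miz1 kd, 10.70 in Hmhi EGF and 10.56 in Hmhi starved, and its 0.13 for Hmhi EGF was within the technical SD.

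Of 6 checkpoint genes, Chek1 and Chek2 were at least 1.5-fold higher in Hmhi EGF and 0 were as far lower. Chek1, which encodes the effector kinase of ATR, read 9.63 in MYC-TA, 9.25 in the array labelled Miz1 kd, 9.29 in Hmhi EGF and 7.90 in Hmhi starved. Hmhi EGF was 2.62-fold higher, on a probe set of the _s_at type that can read related transcripts, and the second set, a plain _at set, gave 1.11. Chek2, the effector kinase of ATM, read 8.71 in MYC-TA, 8.77 in the array labelled Miz1 kd, 8.57 in Hmhi EGF and 7.45 in Hmhi starved, a 2.18-fold difference on 1 probe set. Topbp1, an activator of ATR, read 10.67 in MYC-TA, 10.67 in the array labelled Miz1 kd, 10.62 in Hmhi EGF and 10.10 in Hmhi starved, a difference of 0.52, and its second set gave 0.73.

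Atm read 9.13 in MYC-TA, 9.79 in the array labelled Miz1 kd, 9.55 in Hmhi EGF and 9.41 in Hmhi starved, and its second probe set gave -0.21 where the first gave 0.14. Atr read 8.78 in MYC-TA, 9.32 in the array labelled Miz1 kd, 9.10 in Hmhi EGF and 9.00 in Hmhi starved, a difference of 0.10, and a dimmer set of Atr gave 0.40. Atrip read 7.52 in MYC-TA, 7.53 in the array labelled Miz1 kd, 7.51 in Hmhi EGF and 7.51 in Hmhi starved, so its 4 arrays spanned 0.011, the smallest range of any member. For these 3 genes the Hmhi EGF array was thus within the technical SD of Hmhi starved on the probe sets used.

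Of the break sensors, Nbn was the one with a large difference. Nbn, which brings ATM to the complex, read 8.54 in MYC-TA, 7.48 in the array labelled Miz1 kd, 7.87 in Hmhi EGF and 9.21 in Hmhi starved. All 3 EGF arrays were below Hmhi starved, Hmhi EGF by 2.52-fold, on 1 probe set. Mre11a, the nuclease of the complex, read 7.74 in MYC-TA, 7.74 in the array labelled Miz1 kd, 7.67 in Hmhi EGF and 8.07 in Hmhi starved. It was also lower in Hmhi EGF, by less, at -0.40. Rad50, the tether, read 9.60 in MYC-TA, 9.71 in the array labelled Miz1 kd, 9.53 in Hmhi EGF and 9.49 in Hmhi starved, a difference of 0.03. H2afx, listed on the array as H2ax and encoding H2AX, read 10.67 in MYC-TA, 9.76 in the array labelled Miz1 kd, 10.44 in Hmhi EGF and 9.91 in Hmhi starved, a difference of 0.54.

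Lig4, which encodes the ligase that closes joined ends, read 9.21 in MYC-TA, 9.73 in the array labelled Miz1 kd, 9.55 in Hmhi EGF and 8.78 in Hmhi starved. It was 1.71-fold higher in Hmhi EGF, while the 3 other end-joining genes were lower by small amounts. Xrcc5 and Xrcc6 encode the Ku subunits. Xrcc5 read 9.71 in MYC-TA, 9.67 in the array labelled Miz1 kd, 9.34 in Hmhi EGF and 9.74 in Hmhi starved. Xrcc6 read 9.40 in MYC-TA, 9.14 in the array labelled Miz1 kd, 8.99 in Hmhi EGF and 9.11 in Hmhi starved. Prkdc, the gene of DNA-PKcs, read 8.98 in MYC-TA, 9.20 in the array labelled Miz1 kd, 9.00 in Hmhi EGF and 9.22 in Hmhi starved. Of these 3, Xrcc5 alone, at -0.41, was beyond the technical SD.

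Ung, which removes uracil from DNA, read 8.54 in MYC-TA, 8.04 in the array labelled Miz1 kd, 7.94 in Hmhi EGF and 6.56 in Hmhi starved. It was 2.61-fold higher in Hmhi EGF, from a starved level just below the median, and stood apart from the rest of its group. Parp1, the main poly(ADP-ribose) polymerase, read 10.48 in MYC-TA, 10.16 in the array labelled Miz1 kd, 10.06 in Hmhi EGF and 10.00 in Hmhi starved. Parp2, a second such enzyme, read 9.63 in MYC-TA, 10.37 in the array labelled Miz1 kd, 10.06 in Hmhi EGF and 9.61 in Hmhi starved. Xrcc1, the scaffold of single-strand break repair, read 9.17 in MYC-TA, 9.34 in the array labelled Miz1 kd, 9.13 in Hmhi EGF and 8.88 in Hmhi starved, and Ogg1, which removes oxidised guanine, 7.47 in MYC-TA, 7.31 in the array labelled Miz1 kd, 7.25 in Hmhi EGF and 7.42 in Hmhi starved. Parp2 was higher in Hmhi EGF by 0.45, and Parp1, Xrcc1 and Ogg1 differed by 0.06, 0.26 and -0.18, within the technical SD.

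**Figure D2:**
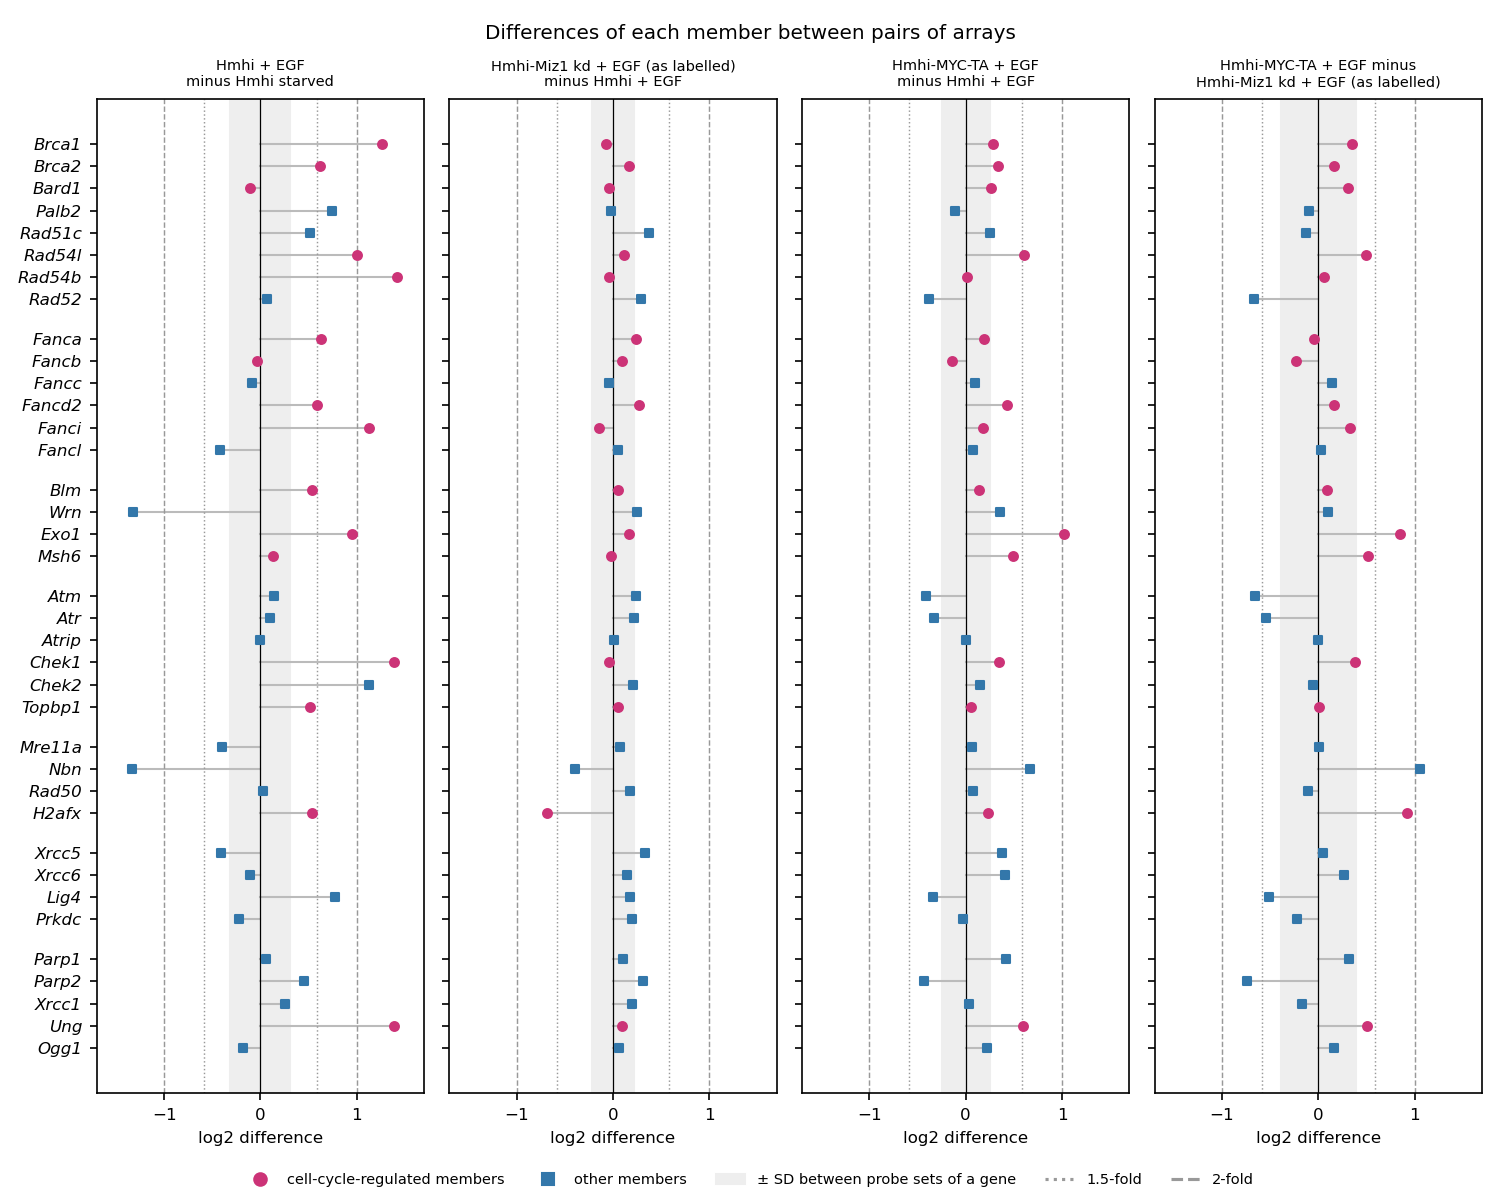
Log2 difference of each member (rows, in the order of the plot of levels) in the 4 comparisons, the first array named minus the second. Grey bands are ± the SD between probe sets of 1 gene, dotted and dashed lines mark 1.5-fold and 2-fold. In the first panel 13 members lie at or beyond the upper dotted line and 2 beyond the lower one, and in the second panel 1 member does.

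The members were also divided by textbook knowledge into 16 whose transcripts are known to follow the cell cycle and 21 others. This grouping was made with earlier results of these data known, so the contrast between the 2 groups is a description only. The 16 are Brca1, Brca2, Bard1, Rad54l, Rad54b, Fanca, Fancb, Fancd2, Fanci, Blm, Exo1, Msh6, Chek1, Topbp1, H2afx and Ung. For Hmhi EGF minus Hmhi starved their median was 0.63, with 14 of 16 higher, against 50.7% of genes. At least 1.5-fold higher were 10 (62.5%), against 16.4% of genes. Hmhi starved read below all 3 EGF arrays for 13 of the 16 (81.25%), against 34.5% of genes. It did so for 8 of the 21 (38.1%), close to the share of genes. The 21 others had a median of 0.03, with 11 higher and 9 lower. Palb2, Chek2 and Lig4 were the 3 (14.3%) at least 1.5-fold higher, close to the 16.4% of genes. Proliferation markers moved the same way. Of 28 listed, 26 were on the array, and their median was 0.72, with 23 of 26 higher and 17 at least 1.5-fold higher. Their summed linear signal was 44724.5 in MYC-TA, 29241.3 in the array labelled Miz1 kd, 31027.9 in Hmhi EGF and 17232.2 in Hmhi starved. The part of proliferation in the members' differences was not tested. In these bulk RNA samples a larger share of cycling cells and more transcript per cell cannot be told apart.

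Which probe sets were used mattered for the largest values. With all probe sets of a gene averaged, dim ones included, 3 members (8.11%) were 2-fold or more higher in Hmhi EGF, close to the 6.19% of genes under that rule, 1 was as far lower, and Brca1, Chek1, Exo1 and Fanci were at 0.59, 0.55, 0.48 and 0.47. Under that rule 10 members (27.0%) were at least 1.5-fold higher, against 13.6% of genes. Among the 15 members past a level filter at the 75th percentile, 3 (20%) were at least 1.5-fold higher, close to the 17.2% of genes past it. Averaged over its sets, Fancd2 was at 0.17 and Wrn at -0.84, and no member at least 1.5-fold apart had its sign turned. Of the 11 members with several probe sets above the median, 7 had all of them on 1 side of zero in this comparison, as the plot of single probe sets shows.

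**Figure D3:**
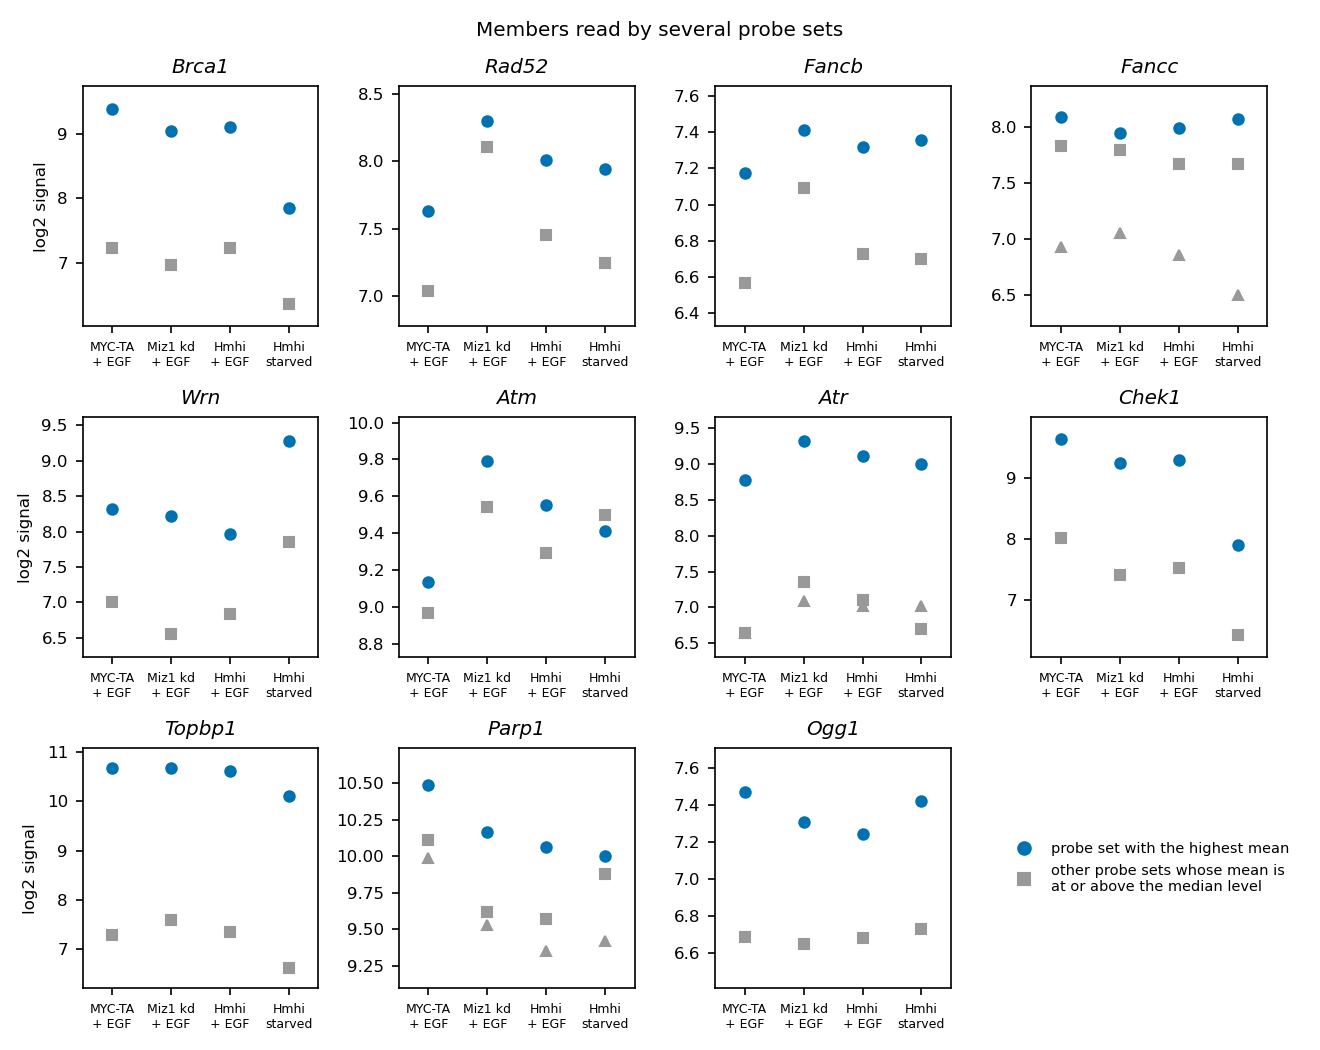
Log2 signal on the 4 arrays of the 11 members that have more than 1 probe set with a mean at or above the median level. Blue circles are the probe set used for the gene and grey symbols the others. Both sets of Chek1 and of Brca1 are lowest in Hmhi starved, both sets of Wrn are highest there, and all sets of Atm, Atr and Rad52 are highest in the array labelled Miz1 kd.

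The question of the Miz-1 construct under EGF was put to the array labelled Miz1 kd, with Hmhi EGF beside it. No member was 2-fold apart between these arrays. H2afx was 1 of 37 (2.70%) at least 1.5-fold lower, at -0.69 or 1.61-fold on its only probe set, against 6.77% of genes. At least 1.5-fold higher were 0 members, against 2.01% of genes, and 0 were 2-fold apart in either direction, against 0.241% of genes higher and 2.32% lower. Beyond the technical SD of 0.21 lay 11 members, and the share of genes beyond it was not counted. The quartiles of the differences for genes, -0.199 and 0.192, lay close to that SD. Many genes were thus beyond it too, and the 11 do not set the members apart. For members the quartiles were -0.017 and 0.205. Nbn was the next lowest at -0.39, and Rad51c, Xrcc5 and Parp2 were the highest at 0.38, 0.33 and 0.31. The median was 0.10 for members and 0.01 for genes, with 27 of 37 members higher (73.0%) against 52.0% of genes.

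Of the 21 members not known to follow the cycle 18 were higher, with a median of 0.18. The 16 cell-cycle-regulated members had a median of 0.05, with 9 higher and 7 lower. These medians differ by less than the technical SD of a single gene, and that of the 16 was -0.02 with only plain _at probe sets and -0.04 with a filter at the 75th percentile. Of the proliferation markers 20 of 26 were lower, with a median of -0.20, and their part in these differences was not tested.

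MYC-TA was compared with Hmhi EGF to ask how MYC-TA differed under EGF. Exo1, Nbn, Rad54l and Ung were the members at least 1.5-fold higher, and none was 1.5-fold lower. Exo1 was 2.03-fold higher, Nbn 1.59-fold, Rad54l 1.52-fold and Ung 1.51-fold. These 4 of 37 (10.8%) compare with 6.90% of genes, and the 0 that were 1.5-fold lower with 6.98%. Exo1 was the 1 member (2.70%) at least 2-fold higher, against 1.07% of genes, and 0 were 2-fold lower, against 1.61%. Only its brightest probe set lay above the median, and with its 3 sets averaged Exo1 was at 0.65. Rad54l and Ung lay so close to the limit that a loess correction left 2 members at least 1.5-fold higher and 0 at 2-fold.

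Smaller differences ran in both directions, also within roles. Msh6 was higher by 0.49, Fancd2 by 0.43, Parp1 by 0.42, Xrcc6 by 0.41 and Xrcc5 by 0.37. The 3 probe sets of Parp1 above the median were higher by 0.42, 0.54 and 0.64. Lower in MYC-TA were Parp2 at -0.43, Atm at -0.42, Rad52 at -0.38, Lig4 at -0.34 and Atr at -0.33. For Atm both probe sets, for Rad52 both and for Atr all 3 read lower in MYC-TA than in Hmhi EGF. These 5 genes are outside the cell-cycle-regulated group, as are Parp1, Xrcc6 and Xrcc5 among the higher ones. The median was 0.18 over all members, against 0.04 for genes, and 29 of 37 were higher (78.4%), against 54.5% of genes.

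The 16 cell-cycle-regulated members had a median of 0.27, with 15 higher and Fancb lower. MYC-TA was the highest of the 4 arrays for 14 of them (87.5%), against 29.0% of genes. The 21 others had a median of 0.075, with 14 higher and 7 lower, which the loess correction brought to 0.0048. Proliferation markers were higher in 23 of 26, with a median of 0.65 and 14 at least 1.5-fold higher. Their part in the members' differences was not tested.

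**Figure D4:**
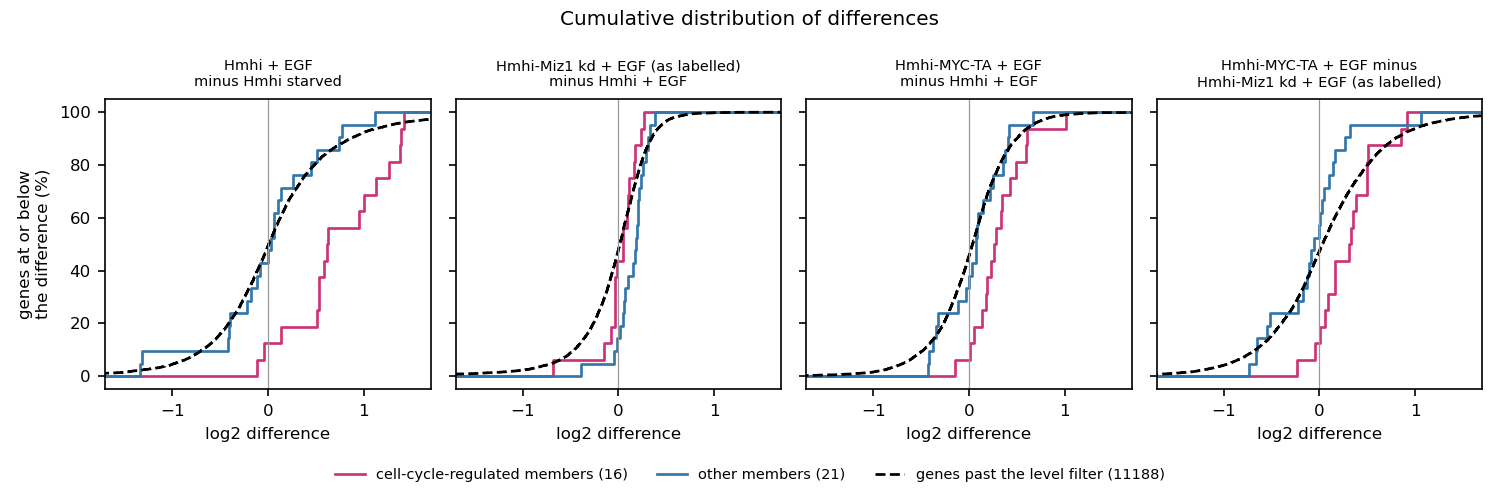
Cumulative share of genes (vertical axis, percent) at or below each log2 difference (horizontal axis) in the 4 comparisons, for the 16 cell-cycle-regulated members, the 21 other members and the 11188 genes past the level filter. At its middle the curve of the 16 lies right of the other curves in every panel but that of the array labelled Miz1 kd minus Hmhi EGF, with medians of 0.63, 0.27 and 0.32, and the curve of the 21 lies right of it in that one, with a median of 0.18 against 0.05.

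Between the EGF-treated constructs, MYC-TA was set against the array labelled Miz1 kd. Nbn, H2afx and Exo1 were higher in MYC-TA, and Parp2, Rad52 and Atm lower. Nbn was 2.08-fold higher, H2afx 1.89-fold and Exo1 1.8-fold. These 3 of 37 (8.11%) at least 1.5-fold higher compare with 16.5% of genes. Nbn, the 1 at least 2-fold higher (2.70%), compares with 6.31%. Parp2 was 1.67-fold lower, Rad52 1.58-fold and Atm 1.57-fold. These 3 (8.11%) compare with 12.4% of genes at least 1.5-fold lower, and the 0 members at least 2-fold lower with 4.16%. The second set of Rad52 was lower by more, at -1.07, and the second of Atm was at -0.58. Nbn, H2afx and Parp2 have 1 probe set each. Both shares of members are below those of genes. The median was 0.05 for members and 0.03 for genes, 0.32 for the 16 cell-cycle-regulated members and -0.06 for the 21 others. Proliferation markers had a median of 0.84, with 23 of 26 higher.

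The promoter letters of members that read higher together are shown because E2F factors are textbook regulators of such genes. RefSeq windows of 250 bases before to 50 after the gene start, on build GRCm38.p6, were at hand for 29 of the 37 members. Of the 6 members highest in MYC-TA over Hmhi EGF, Rad54l, Ung and Msh6 had a window, and Exo1, Nbn and Fancd2 had no entry. Chek1, Chek2 and Topbp1 were added after their values were seen. Both strands were searched for the E2F letters TTTGGCGC, TTTCGCGC, TTTCCCGC and TTTGCCGC, for a second E2F form, GGCGGGAA, added after the windows were seen, for the E-box CACGTG bound by MYC and MAX, for the CHR elements TTTGAA and TTCGAA, and for CCAAT. TTTCCCGC can overlap the reverse complement of the second form, as it does in Msh6. Rad54l has 2 starts in RefSeq that lie 1 base apart, of which 1 is shown. Rad54l lies at chr4:116123640-116123939 on the minus strand, Ung at chr5:114130185-114130484 and Msh6 at chr17:87974800-87975099 on the plus strand. Chek1 lies at chr9:36726609-36726908 on the minus strand, Chek2 at chr5:110839733-110840032 and Topbp1 at chr9:103305077-103305376 on the plus strand. Each line runs from 5′ to 3′ along the gene, with every match in capitals.
Rad54l: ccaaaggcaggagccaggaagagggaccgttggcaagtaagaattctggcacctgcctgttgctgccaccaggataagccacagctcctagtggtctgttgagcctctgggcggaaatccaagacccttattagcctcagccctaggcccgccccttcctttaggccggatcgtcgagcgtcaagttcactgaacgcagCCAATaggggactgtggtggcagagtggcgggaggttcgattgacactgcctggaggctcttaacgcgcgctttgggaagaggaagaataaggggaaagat
Ung: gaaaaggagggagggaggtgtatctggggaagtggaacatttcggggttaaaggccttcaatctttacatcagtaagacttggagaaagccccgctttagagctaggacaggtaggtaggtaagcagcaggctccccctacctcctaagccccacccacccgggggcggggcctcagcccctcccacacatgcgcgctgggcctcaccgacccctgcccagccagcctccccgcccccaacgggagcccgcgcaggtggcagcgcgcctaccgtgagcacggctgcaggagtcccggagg
Msh6: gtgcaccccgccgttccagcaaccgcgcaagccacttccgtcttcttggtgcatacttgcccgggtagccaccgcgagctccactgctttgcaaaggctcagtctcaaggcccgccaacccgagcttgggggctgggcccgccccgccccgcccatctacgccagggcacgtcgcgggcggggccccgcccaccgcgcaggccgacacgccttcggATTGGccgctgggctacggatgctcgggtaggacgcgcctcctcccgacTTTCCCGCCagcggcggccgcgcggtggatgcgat
Chek1: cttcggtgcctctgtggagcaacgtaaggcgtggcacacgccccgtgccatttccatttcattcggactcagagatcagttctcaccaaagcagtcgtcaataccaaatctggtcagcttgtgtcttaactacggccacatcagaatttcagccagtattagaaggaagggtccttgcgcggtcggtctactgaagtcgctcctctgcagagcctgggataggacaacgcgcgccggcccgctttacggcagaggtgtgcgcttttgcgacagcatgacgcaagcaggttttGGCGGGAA
Chek2: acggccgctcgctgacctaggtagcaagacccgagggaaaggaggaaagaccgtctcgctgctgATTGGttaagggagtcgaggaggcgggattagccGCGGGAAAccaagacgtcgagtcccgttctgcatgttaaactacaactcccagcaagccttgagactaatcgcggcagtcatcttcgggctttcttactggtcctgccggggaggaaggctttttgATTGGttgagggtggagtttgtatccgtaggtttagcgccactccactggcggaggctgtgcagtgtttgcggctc
Topbp1: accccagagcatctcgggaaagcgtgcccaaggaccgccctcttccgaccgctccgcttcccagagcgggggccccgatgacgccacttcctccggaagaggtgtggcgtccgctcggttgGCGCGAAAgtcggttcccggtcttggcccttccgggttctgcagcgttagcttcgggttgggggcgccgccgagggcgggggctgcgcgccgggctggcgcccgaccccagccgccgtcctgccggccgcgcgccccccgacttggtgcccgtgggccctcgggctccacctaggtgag

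The windows of Msh6, Chek2 and Topbp1 held letters of the first E2F set, those of Msh6 and Chek1 the second form, and those of Rad54l, Msh6 and Chek2 a CCAAT box. No searched letters were found in the window of Ung. Over the 29 members, 7 windows (24.1%) held the first E2F set: Brca2, Bard1, Rad51c, Msh6, Chek2, Xrcc6 and Topbp1. Of 14368 genes on the array with a window, 3.80% did, and 2.61% of all 27025 genes with RefSeq windows did. The second form was in 4 of 29 (13.8%), against 3.78% of array genes and 2.52% of all genes. Since this form was added after windows of members were seen, its share cannot be weighed against those of genes. E-box letters were in 3 of 29 (10.3%), Parp1, Parp2 and Xrcc5, against 10.3% of array genes and 8.09% of all genes. CHR letters were in 2 of 29 (6.90%), against 17.5% and 21.7%, and CCAAT in 16 of 29 (55.2%), against 42.0% and 41.1%. Among the 10 members with a window that were at least 1.5-fold higher in Hmhi EGF, 2 held the first E2F set. A match in such a window, or the lack of 1, is a description of its letters.

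Other genes of these pathways gave a background for the members. A list of 92, written from textbook roles with earlier results of these data known, had 80 on the array and 72 past the level filter. For Hmhi EGF minus Hmhi starved 8 of 80 (10.0%) were at least 1.5-fold higher, against 16.4% of genes, and 7 (8.75%) lower, against 12.8%, with a median of 0.04. Rev3l, the catalytic subunit of a translesion polymerase, read 11.22 in MYC-TA, 11.56 in the array labelled Miz1 kd, 11.61 in Hmhi EGF and 9.53 in Hmhi starved. Rad51ap1, an accessory factor of recombination, read 9.61 in MYC-TA, 9.89 in the array labelled Miz1 kd, 9.63 in Hmhi EGF and 7.92 in Hmhi starved. Ube2t, the ubiquitin-conjugating enzyme of the Fanconi pathway, read 9.02 in MYC-TA, 8.53 in the array labelled Miz1 kd, 8.74 in Hmhi EGF and 7.32 in Hmhi starved. These 3 had the largest positive differences, 2.08, 1.71 and 1.42, and all 3 EGF arrays lay above Hmhi starved. Rad1, a subunit of the clamp that brings TOPBP1 to ATR, read 7.85 in MYC-TA, 7.92 in the array labelled Miz1 kd, 7.62 in Hmhi EGF and 8.77 in Hmhi starved, and at -1.15 it was among the lowest.

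For the array labelled Miz1 kd minus Hmhi EGF 0 of the 80 were 1.5-fold apart, against 2.01% of genes higher and 6.77% lower, and the median was -0.01. For MYC-TA minus Hmhi EGF 12 of 80 (15.0%) were at least 1.5-fold higher, against 6.90% of genes, and 2 (2.50%) lower, against 6.98%, with a median of 0.13. For MYC-TA minus the array labelled Miz1 kd 13 (16.25%) were higher by that fold, against 16.5%, and 9 (11.25%) lower, against 12.4%. Rpa2, a subunit of the protein that coats single-stranded DNA, read 9.55 in MYC-TA, 8.19 in the array labelled Miz1 kd, 8.58 in Hmhi EGF and 8.83 in Hmhi starved, highest in MYC-TA and lowest in the array labelled Miz1 kd. Mbd4, a glycosylase for mismatched thymine, read 8.27 in MYC-TA, 9.59 in the array labelled Miz1 kd, 9.07 in Hmhi EGF and 8.16 in Hmhi starved, highest in the array labelled Miz1 kd. Poll, an end-joining polymerase, read 7.53 in MYC-TA, 6.33 in the array labelled Miz1 kd, 6.80 in Hmhi EGF and 7.21 in Hmhi starved. For MYC-TA minus the array labelled Miz1 kd these 3 differed by 1.37, -1.31 and 1.20. Cdkn1a, the p53 target that encodes the cell-cycle inhibitor p21, read 10.11 in MYC-TA, 9.49 in the array labelled Miz1 kd, 10.29 in Hmhi EGF and 8.12 in Hmhi starved. Cdkn2a read 8.72 in MYC-TA, 7.59 in the array labelled Miz1 kd, 7.89 in Hmhi EGF and 7.87 in Hmhi starved. It was thus highest in MYC-TA, by 0.83 over Hmhi EGF.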

How the data were processed

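The labels' protocols give total RNA, biotinylated cRNA and Affymetrix arrays, 1 per condition. The deposited values are read here as log2 signals, since 45101 probe sets ran between 2.94 and 15.12. Sorted, the 4 columns differed by at most 0.004, as quantile normalization leaves them, which hides any shift common to all genes. The summarization, the normalization and the log base are not given in the sources used here. The platform annotation gave 34945 probe sets 1 gene, and 932 with several genes were left out. H2afx was matched as H2ax through RefSeq synonyms. The members, lists and cell-cycle grouping were chosen with earlier results of these data known. All 37 members are named, and those at least 1.5-fold apart are described further. From the other pathway lists, up to 3 genes per direction and comparison at least 2-fold apart were named. Exceptions are marked in the text.

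Differences were computed per gene with no test, since no replicates existed. They are given beside 11188 genes past the level filter. With 4 arrays the precision is low. Functions were tested on simulated data. Alternatives were other probe set rules, level filters and normalizations. Figures were drawn with matplotlib 3.10.9, loess came from statsmodels 0.14.6, and the rest ran on numpy 2.4.6 and pandas 2.3.3 under Python 3.11.15.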

Additional observations from a re-analysis of the deposited data

How the results depend on the processing

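No paired analysis was possible because there was only 1 array per condition, for which reason no array could be left out either. The 32 alternative values of the members' medians kept their sign but some moved by over 1.5 times. For Hmhi EGF minus Hmhi starved they ran between 0.14 and 0.36, against 0.26 as reported. For the array labelled Miz1 kd minus Hmhi EGF they ran between 0.079 and 0.177, against 0.102. For MYC-TA they ran between 0.075 and 0.179 over Hmhi EGF, against 0.179, and between 0.005 and 0.054 over the array labelled Miz1 kd, against 0.054. Of 128 alternative counts 112 stayed within 1.5 times the reported count or equal to it. These 112 include the settings without a filter, with a common median and with quantile normalization, which could hardly change a member count. The cause of the other 16 was not tested beyond the fewer members that a filter leaves. With a filter at the 75th percentile, which leaves 15 members, Hmhi EGF minus Hmhi starved had 3 (20%, against 17.2% of genes) at least 1.5-fold higher, 0 lower, 2 at least 2-fold higher and 0 lower. MYC-TA then had 0 at least 1.5-fold and 0 at least 2-fold above Hmhi EGF, and 1 and 0 above the array labelled Miz1 kd. With all probe sets averaged, 3 members were at least 2-fold higher and 1 lower in Hmhi EGF than in Hmhi starved, and in MYC-TA 0 were 2-fold above Hmhi EGF. With loess, MYC-TA had 2 at least 1.5-fold and 0 at least 2-fold above Hmhi EGF, and 0 at least 2-fold above the array labelled Miz1 kd. With only plain _at sets, which 33 members have, 1 was at least 1.5-fold higher in the array labelled Miz1 kd than in Hmhi EGF, and 1 at least 2-fold lower in MYC-TA than in the array labelled Miz1 kd. Of 185 alternative values of members at least 1.5-fold apart, 177 moved by less than the technical SD and 0 changed sign. Most of these could not move, since a level filter leaves a member's difference as it is. A common median or quantile normalization hardly alters columns that are already alike. With all probe sets averaged 7 values moved and 19 did not. With only plain _at sets 1 moved and 21 did not, and with loess 26 did not. The medians of the cell-cycle-regulated and other members were added as results after the data were seen.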

Other observations

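Nucleotide excision repair removes bulky lesions such as those left by ultraviolet light, and no member belongs to it. Of 15 listed genes 14 were on the array, and 10 of 14 were lower in Hmhi EGF than in Hmhi starved, with a median of -0.30. The 4 that were higher compare with 50.7% of genes, and the 4 (28.6%) that were at least 1.5-fold lower with 12.8% of genes. Xpa, which verifies the lesion, read 8.67 in MYC-TA, 8.09 in the array labelled Miz1 kd, 8.22 in Hmhi EGF and 9.41 in Hmhi starved. Cetn2, a partner of the damage sensor XPC, read 10.52 in MYC-TA, 10.04 in the array labelled Miz1 kd, 10.24 in Hmhi EGF and 11.26 in Hmhi starved. Ercc3, a helicase of TFIIH, and Ddb1, an adaptor of a ubiquitin ligase, were the 2 others, named after their values were seen, at -0.63 and -0.62. Ddb2, which binds ultraviolet damage, was the 1 gene at least 1.5-fold higher, at 0.97, and was also named after its values were seen. Whether these differences exceed the spread between cultures could not be tested. Lower readings were not particular to this list. Of the end-joining genes outside the members 5 of 6 were lower, with a median of -0.34. The remaining lists of pathway genes outside the members had medians between 0.04 and 0.245.

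Ddb1 and Ddb2, whose proteins form 1 complex, differed in opposite directions in MYC-TA. Ddb1 read 12.25 in MYC-TA, 11.07 in the array labelled Miz1 kd, 11.47 in Hmhi EGF and 12.09 in Hmhi starved. Ddb2 read 9.66 in MYC-TA, 10.42 in the array labelled Miz1 kd, 10.48 in Hmhi EGF and 9.51 in Hmhi starved. MYC-TA minus Hmhi EGF was 0.78 for Ddb1 and -0.81 for Ddb2. Pcna, the clamp of replicative and repair synthesis, named after its values were seen, read 12.88 in MYC-TA, 11.90 in the array labelled Miz1 kd, 12.19 in Hmhi EGF and 12.46 in Hmhi starved, with 0.69 for MYC-TA minus Hmhi EGF and -0.27 for Hmhi EGF minus Hmhi starved.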
